A study of Rattus norvegicus with 6 samples.

Results

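The 10 genes described here make or limit nitric oxide and reactive oxygen in the cell: Nos2, Sod1, Sod2, Cat, Hmox1, Nqo1, Gclc, Gclm, Txnrd1 and Nfe2l2. They were taken by gene symbol from a fixed list, and all 10 were found among the 18420 genes of the deposited table and passed the filter on low counts. RNA-seq libraries of primary rat articular chondrocytes, the cells of joint cartilage, were compared between 2 groups of 3. In the TNF-α group the cells were kept for 6 h with TNF-α at 10 ng/mL, an inflammatory stimulus used as a cellular model of osteoarthritis. Cells of the TNF-α+NFL group received the same and then Nanofat lysate (NFL), the cleared freeze–thaw lysate of rat stromal vascular fat cells, for another 24 h. All libraries came from wild-type male Sprague-Dawley rats, whose age is not given in the sources used here, and cells from knees and hips were used at the third passage after serum culture. The labels give 6 h and 30 h as the times, and no library used here held cells given TNF-α and then left for 24 h without NFL, so NFL and the time of harvest cannot be told apart. The study calls the libraries of a group independent biological replicates. Cells of 1 passage were divided among the groups, and whether the replicates came from separate animals is not given in the sources used here, so p-values measure the spread between these cultures.

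Nitric oxide synthase 2 makes nitric oxide from arginine after inflammatory stimuli, and chondrocytes are known to make it in response to TNF-α. Superoxide dismutases turn superoxide into hydrogen peroxide, which catalase, peroxiredoxins and glutathione peroxidases then remove. The transcription factor NRF2, encoded by Nfe2l2, is held low by KEAP1 and, when released, binds antioxidant response elements near genes for glutathione synthesis, thioredoxin reduction, haem breakdown and quinone reduction. Hmox1, Nqo1, Gclc, Gclm and Txnrd1 are well known targets of it, whereas Nos2 and Sod2 are well known targets of NF-κB, the factor that TNF-α activates.

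TGANNNNGC, a loose form of the core letters of an antioxidant response element, was searched on both strands in RefSeq promoters of build GRCr8. The usual core has C after TGA, and this base was left free here. Each promoter ran from 250 bases before to 50 bases after a gene start. A promoter was found for 8 of the 10 genes, all but Nos2 and Hmox1, and Txnrd1 had 2, of which promoter 2 held a match and promoter 1 did not. Of all 33469 promoters, 34.7% held these letters in the 250 bases before the start. The 4 stretches of 100 bases below are those of the members with a match there, and are shown so that Nqo1, whose RNA differed between the groups, can be read beside Gclm and Txnrd1, whose RNA did not pass the test. Capitals mark the match (its reverse complement where it lies on the other strand), and each stretch is written along the strand of its gene. They lie at chr19:52220268-52220367 (minus strand) for Nqo1, chr1:50050169-50050268 (minus strand) for Sod2, chr2:213031917-213032016 (plus strand) for Gclm and chr7:22755929-22756028 (minus strand) for promoter 2 of Txnrd1. The match of Nqo1 has A after TGA, whereas those of Sod2, Gclm and Txnrd1 have C there, read on the matching strand. A match of letters is a description and not a measured binding site.
Nqo1: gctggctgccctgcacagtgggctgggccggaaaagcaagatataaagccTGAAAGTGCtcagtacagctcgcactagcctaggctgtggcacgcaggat
Sod2: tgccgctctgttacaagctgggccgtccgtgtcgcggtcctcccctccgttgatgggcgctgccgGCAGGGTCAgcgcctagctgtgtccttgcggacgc
Gclm: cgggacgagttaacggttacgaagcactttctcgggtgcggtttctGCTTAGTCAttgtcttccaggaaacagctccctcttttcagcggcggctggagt
Txnrd1: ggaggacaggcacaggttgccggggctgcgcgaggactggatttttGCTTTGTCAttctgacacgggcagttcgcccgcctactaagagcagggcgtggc

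The depth ranged from 19344893 to 19725135 estimated counts a library, and 13250 genes passed the filter on low counts. Values below are CPM, counts scaled to the size of the library, after TMM scaling, which sets the libraries to a common level, and the test throughout is the quasi-likelihood test of edgeR, its p-values adjusted by Benjamini and Hochberg's method over these 13250 genes. Which group is higher or lower was read from the labels of the libraries. A supplementary table of the study gives contrasts against another group, not analysed here, under the column heads M and T, which it does not define. If these stand for TNF-α and TNF-α+NFL, the direction between them is the opposite of that given by the labels, so "TNF-α+NFL" below means the libraries labelled so. The libraries expressed the cartilage genes Prg4 (TPM from 948 to 1329) and Col11a1 (from 404 to 533) strongly. Col2a1 (from 7.10 to 9.54) and Acan (from 4.47 to 6.12), the defining cartilage collagen and aggrecan, were low beside Col1a1 (from 1123 to 1401), the collagen of fibroblasts. The remaining cartilage markers were low too: Comp (from 7.64 to 9.81), Hapln1 (6.80 to 8.28), Sox9 (3.93 to 5.07), Matn3 (0.88 to 1.46) and Col9a1 (0.73 to 1.10). The stromal marker Thy1 was high (from 2402 to 2733). Of the 9 cartilage markers, 0 passed an adjusted p of 0.05 between the groups in edgeR's fit. Their log2 fold changes (TNF-α+NFL minus TNF-α) ran from -0.14 for Prg4 (adjusted p = 0.80) to 0.41 for Col9a1 (0.49), with Hapln1 (-0.084) and Comp (-0.077) also below 0. Col11a1 (0.22) fell just outside the threshold (adjusted p = 0.052 in edgeR's fit). Col2a1 (0.23, adjusted p = 0.22 in the same fit), Acan (0.090), Sox9 (0.049) and Matn3 (0.016) were also above 0. TNF-α replicate 1 stood apart, with 40 counts of the macrophage receptor gene Csf1r against 1 to 7 in the other 5 libraries, and leaving it out raised the number of changed genes from 81 to 930. Of 6 macrophage markers in the table, 4 were too low to be tested, and the summed CPM of all 6 was 77.9 to 82.7 in the TNF-α group and 69.8 to 71.7 in the TNF-α+NFL group, most of it from Cd68 and Cd14. The part of these cells in the results was not tested. Markers of endothelium and red blood cells summed to less than 1 CPM in every library.

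Of the 10 genes, Nqo1 alone passed an adjusted p of 0.05, and it was lower in the TNF-α+NFL group. Nfe2l2, Hmox1, Sod1 and Sod2 were each lower in all 3 TNF-α+NFL libraries than in any TNF-α library but did not pass the adjustment. Cat, Gclc, Gclm, Txnrd1 and Nos2 overlapped between the groups. Among all tested genes, 0.611% passed the threshold, 0.204% as lower and 0.408% as higher. Groups that did not overlap were found with TNF-α+NFL below for 8.17% of all tested genes (5 of the 10 members) and with TNF-α+NFL above for 8.66% (0 of the 10). An unadjusted p under 0.05 was reached by 5 members that were lower, against 5.45% of all genes, and by 0 that were higher, against 5.66%. The members were chosen with earlier results of these data known, so these shares do not test the family. The median log2 fold change (TNF-α+NFL minus TNF-α) was -0.088 over the members and -0.0035 over all tested genes. In bulk RNA, fewer cells expressing a gene and less RNA per cell cannot be told apart.

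**Figure D1:**
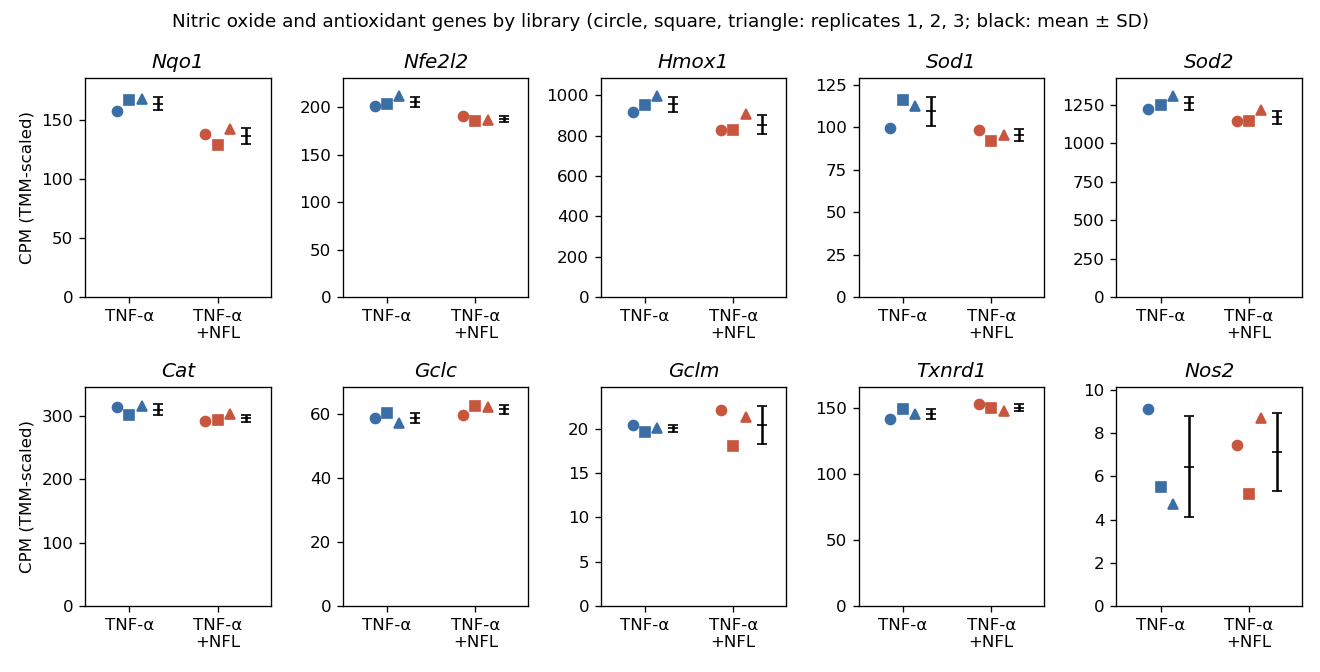
CPM of each gene (vertical axes, from 0) in the 3 TNF-α (blue) and 3 TNF-α+NFL (red) libraries, with circles, squares and triangles for replicates 1, 2 and 3 and black marks for the mean ± SD. In the first 5 panels all red points lie below all blue points, and Nos2 shows the widest spread within the groups.

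NAD(P)H quinone dehydrogenase 1 (Nqo1, Entrez gene 24314) reduces quinones without making free radicals and is a standard readout of NRF2. Its CPM was 158, 167 and 168 in TNF-α replicates 1 to 3, and 138, 129 and 143 in TNF-α+NFL replicates 1 to 3. All 3 TNF-α+NFL libraries lay below the lowest TNF-α library. The group means were 164 ± 5.59 (SD, n = 3) and 137 ± 6.95 (SD, n = 3), and the level fell by 16.6% from the first to the second. This is a log2 fold change of -0.26 (standard error 0.046, 95% interval -0.36 to -0.16, adjusted p = 0.022 in edgeR's quasi-likelihood fit). The exact permutation test gave p = 0.1 (two-sided), the smallest that 3 against 3 samples allow. Nqo1 ranked 41 of 13250 genes by p. The call depended on the fit and the libraries used. It was lost with the replicate number as a block (adjusted p = 0.052) and with limma on log2(FPKM + 1) (adjusted p = 0.14). It held without TNF-α replicate 1 (adjusted p = 0.00014), whereas leaving out any of the other 5 libraries gave adjusted p-values from 0.077 to 0.18. Over the 6 fits with a library left out the log2 fold change ran from -0.29 to -0.22.

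Nfe2l2 (Entrez gene 83619) encodes NRF2 itself. Its CPM was 201, 203 and 212 in the TNF-α libraries and 191, 185 and 187 in the TNF-α+NFL libraries. The spread within each group was small, with coefficients of variation of 2.75% and 1.52%, and the groups did not overlap. Its log2 fold change was -0.13 (standard error 0.038, 95% interval -0.21 to -0.048, adjusted p = 0.19 in edgeR's quasi-likelihood fit). KEAP1 acts on the NRF2 protein, which RNA-seq does not measure.

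Hmox1 (Entrez gene 24451) encodes haem oxygenase 1, which breaks haem down to biliverdin, iron and carbon monoxide. Its CPM was 918, 954 and 995 in the TNF-α libraries and 829, 828 and 909 in the TNF-α+NFL libraries. The highest TNF-α+NFL library lay just below the lowest TNF-α library. For Hmox1 the log2 fold change was -0.16 (standard error 0.046, 95% interval -0.26 to -0.061, adjusted p = 0.18 in the same fit).

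Gclc and Gclm encode the catalytic and the modifier subunit of glutamate-cysteine ligase, the rate-limiting enzyme of glutathione synthesis. Gclc (Entrez gene 25283) was at a CPM of 58.9, 60.5 and 57.3 in the TNF-α libraries and 59.9, 62.6 and 62.2 in the TNF-α+NFL libraries. The groups overlapped, and the log2 fold change was 0.063 (95% interval -0.033 to 0.16, adjusted p = 0.66 in edgeR's quasi-likelihood fit). Gclm (Entrez gene 29739) was at 20.4, 19.6 and 20.1 in the TNF-α libraries and 22.1, 18.0 and 21.3 in the TNF-α+NFL libraries. Its TNF-α+NFL values spread to both sides of the TNF-α values. The log2 fold change was 0.030 (95% interval -0.14 to 0.20, adjusted p = 0.94 in the same fit), and it changed sign without TNF-α+NFL replicate 1, at -0.026.

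Txnrd1 (Entrez gene 58819) encodes cytosolic thioredoxin reductase, which keeps thioredoxin reduced with electrons from NADPH. It was at a CPM of 142, 150 and 146 in the TNF-α libraries and 153, 151 and 148 in the TNF-α+NFL libraries, which overlapped. The log2 fold change was 0.045 (95% interval -0.039 to 0.13, adjusted p = 0.74 in edgeR's quasi-likelihood fit), and with 1 library left out it lay between 0.027 and 0.068, the fits that lacked replicates 1 and 2 of the TNF-α group. The 95% intervals of Gclc and Txnrd1 lay entirely above that of Nqo1, another target of NRF2, and the difference between these changes was not tested.

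**Figure D2:**
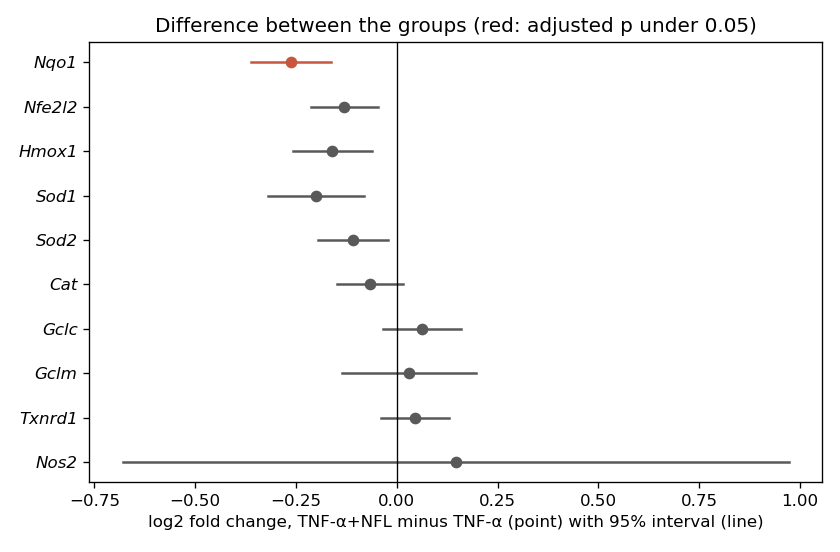
Log2 fold change of each gene (horizontal axis, TNF-α+NFL minus TNF-α) as a point with its 95% interval as a line, red where the adjusted p was under 0.05. Nqo1 lies at -0.26, the other targets of NRF2 range from -0.16 (Hmox1) to 0.063 (Gclc), and the interval of Nos2 runs from -0.68 to 0.97.

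Sod1 (Entrez gene 24786) encodes the copper and zinc superoxide dismutase of the cytosol. Its CPM was 99.8, 116 and 112 in the TNF-α libraries and 98.5, 91.6 and 95.6 in the TNF-α+NFL libraries. TNF-α replicate 1 lay just above the highest TNF-α+NFL library and apart from the other 2 TNF-α libraries. For Sod1 the log2 fold change was -0.20 (standard error 0.055, 95% interval -0.32 to -0.080, adjusted p = 0.16 in edgeR's quasi-likelihood fit), and -0.26 without TNF-α replicate 1. The transcript length implied by its counts and FPKM was 625 bases, among the shortest 3313 of the tested genes (up to 1603 bases), whose median log2 fold change was -0.055. The longest 3313 had a median of 0.034. After a trend with length had been taken out of each library, the log2 fold change of Sod1 was -0.12 and that of Nqo1, implied at 1446 bases, was -0.23.

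Sod2 (Entrez gene 24787), the manganese enzyme of mitochondria, was at a CPM of 1227, 1249 and 1309 in the TNF-α libraries and 1144, 1149 and 1218 in the TNF-α+NFL libraries. The groups did not overlap on this scale, but they did in TPM, the authors' values scaled to transcript length and a common sum, where TNF-α+NFL replicate 3 (1171.48) lay above TNF-α replicate 2 (1170.62). Its log2 fold change was -0.11 (standard error 0.040, 95% interval -0.20 to -0.022, adjusted p = 0.32 in edgeR's quasi-likelihood fit).

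Cat (Entrez gene 24248) encodes catalase, which breaks down hydrogen peroxide in peroxisomes. It was at a CPM of 314, 301 and 315 in the TNF-α libraries and 292, 293 and 303 in the TNF-α+NFL libraries, which overlapped through TNF-α replicate 2. Its log2 fold change was -0.067 (95% interval -0.15 to 0.015, adjusted p = 0.56 in the same fit). Its estimated counts were fractional in 6 of 6 libraries, so part of its reads was shared with other transcripts, and the same held for Nos2.

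Without TNF-α replicate 1, 5 members were lower in the TNF-α+NFL group at an adjusted p under 0.05 in edgeR's quasi-likelihood fit, against 3.51% of all genes tested in that fit. These were the 5 whose groups did not overlap, with adjusted p-values of 0.00014 for Nqo1, 0.00039 for Sod1, 0.012 for Nfe2l2, 0.019 for Sod2 and 0.021 for Hmox1. In no other fit with 1 library left out did any member pass.

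**Figure D3:**
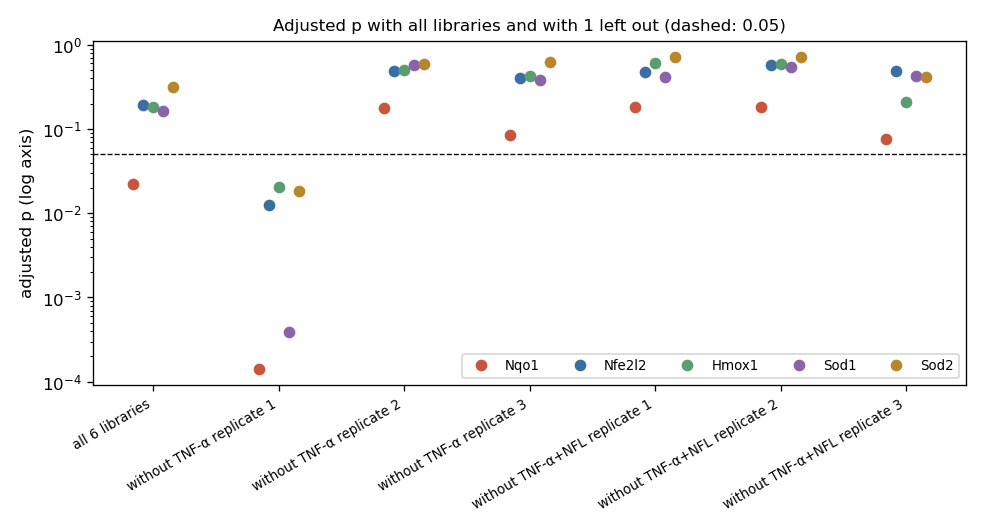
Adjusted p (log axis) of the 5 genes whose groups did not overlap, with all 6 libraries and with each library left out in turn, and a dashed line at 0.05. All 5 fall below the line without TNF-α replicate 1, Nqo1 alone does with all 6 libraries, and none does in the other 5 fits.

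Nos2 (Entrez gene 24599), the inducible nitric oxide synthase, was the least abundant member and the most variable. It had 173.51, 108.69 and 92.65 estimated counts in replicates 1 to 3 of the TNF-α group, and 145.82, 100.58 and 171.19 in TNF-α+NFL replicates 1 to 3. The values of the groups were interleaved, with 1 library of the TNF-α group and 2 of the TNF-α+NFL group above 140 counts. In CPM the means were 6.44 ± 2.34 (SD, n = 3) and 7.11 ± 1.79 (SD, n = 3), with coefficients of variation of 36.4% and 25.2%. Those of the other 9 members lay between 1.52% and 10.5%. The log2 fold change was 0.15 (95% interval -0.68 to 0.97, adjusted p = 0.93 in edgeR's quasi-likelihood fit, exact permutation test p = 0.8). Its sign turned when replicate 3 of either group was left out (-0.035 for that of the TNF-α group, -0.025 for that of the TNF-α+NFL group). It became 0.48 (adjusted p = 0.25, edgeR) when TNF-α replicate 1 was left out. TNF-α replicate 1, the library with the highest Nos2, had the most counts of 4 of the 6 macrophage markers, the scarce Csf1r, Ptprc (7, against 0 to 2 elsewhere), Lyz2 (14.95, against 0) and Itgam (6, against 0 to 2). For the 2 abundant markers the order depended on the scale. In TPM this library was narrowly the highest for both, with Cd14 at 68.63 (58.35 to 68.20 elsewhere) and Cd68 at 43.35 (33.60 to 42.86 elsewhere). In estimated counts, not scaled for depth, its Cd14, 1021.53, was the lowest of the TNF-α group (1070.49 and 1089.12 in the others) and above the 899.07 to 969.63 of the TNF-α+NFL group. The Cd68 count was highest in TNF-α+NFL replicate 3 (502, against 387 to 491 in the other 5). That library had nearly as many Nos2 counts, and 5 counts of Csf1r and 0 of Lyz2. Macrophages also express Nos2, and their part in these values was not tested.

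Per transcript length, Sod2 and Hmox1 were the most abundant members, with mean TPM values over the 6 libraries of 1160.8 and 1160.3. Their ranges (1103 to 1215 and 1074 to 1240) overlapped. Hmox1 was above Sod2 in TNF-α replicates 1 to 3 (1193 against 1187, 1200 against 1171, 1240 against 1215) and in TNF-α+NFL replicate 3 (1174.13 against 1171.48). In TNF-α+NFL replicates 1 and 2 it was below Sod2 (1074 against 1103, 1081 against 1117), so 1 order did not hold in every library. Sod1 followed at 323, Cat at 234, Nqo1 at 205, Nfe2l2 at 166, Txnrd1 at 84.5, Gclc at 38.8, Gclm at 27.0 and Nos2 at 3.75. From Sod1 downwards no neighbours in this order overlapped in any library. The catalytic subunit Gclc was above the modifier subunit Gclm in 6 of 6 libraries, with TPM from 35.9 to 41.0 against 24.5 to 29.7. On this scale the 3 TNF-α+NFL values of Gclc and of Txnrd1 lay above the 3 TNF-α values, whereas in TMM-scaled CPM they overlapped.

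**Figure D4:**
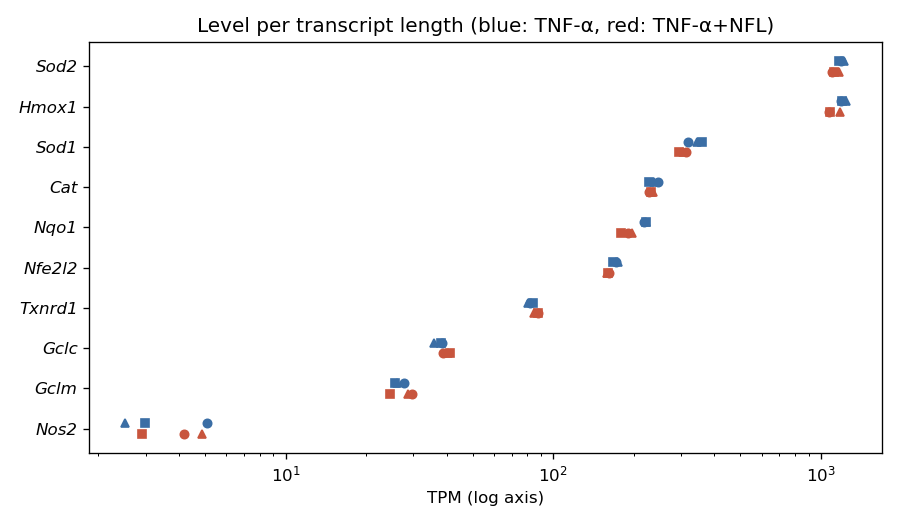
TPM (log axis) of each gene in the TNF-α (blue) and TNF-α+NFL (red) libraries, in order of the mean, with circles, squares and triangles for replicates 1, 2 and 3. Sod2 and Hmox1 share the top near 1160, and Nos2 lies lowest, between 2.52 and 5.09.

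Among the 5 members whose groups did not overlap, Pearson's r of log2 CPM over the 6 libraries ran from 0.78 (Sod1 and Sod2) to 0.993 (Sod2 and Hmox1), and members that differ between the groups in 1 direction correlate by construction. Within the TNF-α+NFL group their order differed, with replicate 1 highest for Sod1 and Nfe2l2 and lowest for Sod2. The coefficient was -0.88 between Gclc and Nfe2l2, and from -0.45 to -0.19 between Nos2 and each of the 5 lower members. These values describe 6 libraries that share the group difference and the scaling. Of the 9094 other genes with a mean CPM of at least 10, the 3 most like Nqo1 were Tmem98 (r = 0.994), the peroxiredoxin gene Prdx2 (r = 0.989) and Trim27 (r = 0.989), and 254 genes had an r over 0.9. Among the 3 most like Sod1 were Phpt1 (r = 0.990) and Rpl22l1 (r = 0.989), with 333 genes over 0.9.

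Around these members, 8 lists of related genes held 130 symbols, of which 128 were in the table and 121 were tested. Of these 121, 1 was higher and 0 were lower at an adjusted p under 0.05 (0.408% and 0.204% of all genes tested; edgeR, quasi-likelihood). At an unadjusted p under 0.05, 9 were higher and 18 lower (5.66% and 5.45% of all genes). Their median log2 fold change was -0.043, with 80 of 121 below 0, beside -0.0035 and 6865 of 13250 for all genes tested. The groups did not overlap for 17 of the 121 with TNF-α+NFL below and for 11 with TNF-α+NFL above (8.17% and 8.66% of all genes). The lists too were chosen with earlier results of these data known, so these shares do not test them. Of the 121, 61 were among the shortest 3313 genes, whose median was -0.055. With the length trend removed the median of the 121 was -0.0088, and that of the 10 members was -0.081. Without TNF-α replicate 1, 6 of the list genes were higher and 19 lower at an adjusted p under 0.05 in edgeR's fit (3.43% and 3.51% of the genes tested there). Of the list genes given below, Ddah1, Park7, Gsk3b, Gstp1, Mgst2, Prdx5, Fth1, Ftl1, Pgd and Nox4 passed in that fit, and Nxn, Aox1, Sesn2 and Sesn3 did not.

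In the list for nitric oxide and arginine, Ddah1 was higher in the TNF-α+NFL group. It encodes a dimethylarginine dimethylaminohydrolase, which degrades asymmetric dimethylarginine, an inhibitor of nitric oxide synthases. Mean CPM rose from 181 ± 3.15 to 207 ± 1.57 (both SD, n = 3), and the log2 fold change was 0.20 (SE 0.036, adjusted p = 0.031 in edgeR's quasi-likelihood fit). It passed in 1 of the 6 fits with a library left out, that without TNF-α replicate 1 (adjusted p = 0.0011), and the highest value over all alternatives was 0.25. The other 17 tested genes of this list did not pass. Nos1 and Nos3, the neuronal and endothelial synthases, were too low to be tested. Gch1, which makes the cofactor tetrahydrobiopterin, had a log2 fold change of -0.073, and the arginine-recycling gene Ass1 one of -0.021, and both overlapped between the groups.

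Among the genes that control NRF2, 0 of 13 passed. Keap1, which encodes its inhibitor, was at a CPM of 38.4 in the TNF-α group and 37.5 in the TNF-α+NFL libraries, a difference of -0.034 on the log2 scale (adjusted p = 0.89 in the same fit). The competing repressor gene Bach1 had a log2 fold change of -0.078 (adjusted p = 0.78). The smallest unadjusted p-values were those of Park7 (log2 fold change -0.15, adjusted p = 0.21) and Gsk3b (0.12, adjusted p = 0.25), whose product promotes the degradation of NRF2. Park7 was at -0.088 with the length trend removed, and its estimated counts were fractional in 5 of 6 libraries. Gsk3b turned to -0.010 with limma on log2(FPKM + 1), and its estimated counts, like those of Bach1, were fractional in 6 of 6 libraries.

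Of 28 tested glutathione genes and 18 of the thioredoxin and peroxiredoxin system, 0 passed. The glutathione transferase gene Gstp1 came nearest, at a CPM of 432 ± 31.7 in the TNF-α and 368 ± 16.7 in the TNF-α+NFL libraries (both SD, n = 3), a log2 fold change of -0.23 (adjusted p = 0.088 in edgeR's quasi-likelihood fit). The estimated counts of Gstp1 were fractional in 6 of 6 libraries. Mgst2, another glutathione transferase gene, had a log2 fold change of -0.23 (adjusted p = 0.25). The peroxiredoxin gene Prdx5 had one of -0.18 (adjusted p = 0.12) and the nucleoredoxin gene Nxn one of -0.24 (adjusted p = 0.21). Of the 28 glutathione genes 17 lay below 0, with a median of -0.012, which was 0.027 with the length trend removed. In the thioredoxin and peroxiredoxin list 14 of 18 genes lay below 0, with a median of -0.061. Of these 18, 12 were among the shortest 3313 genes, and with the length trend removed the median was -0.012. That alternative moved Prdx5 to -0.11 and Mgst2 to -0.12, and Gstp1, at -0.16, then passed (adjusted p = 0.028, edgeR). In DESeq2's Wald test Gstp1 (0.0046) and Prdx5 (0.028) passed.

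The list for haem, iron storage and quinone or carbonyl reduction, with 11 of 14 genes below 0, had a median of -0.080. Of the 14, 9 were among the shortest 3313 genes, and with the length trend removed the median was -0.032. The ferritin heavy chain gene Fth1 fell just outside the threshold, at a CPM of 2932 ± 101 in the TNF-α and 2556 ± 98.1 in the TNF-α+NFL libraries (both SD, n = 3), a log2 fold change of -0.20 (adjusted p = 0.052 in the same fit). The light chain gene Ftl1 was at 4985 ± 56.4 in the TNF-α and 4527 ± 31.6 in the TNF-α+NFL libraries (both SD, n = 3), a log2 fold change of -0.14 (adjusted p = 0.10). Fth1 passed with no filter on low counts (adjusted p = 0.012, edgeR), in limma-voom (0.039) and in DESeq2's Wald test (0.00085), where Ftl1 did too (0.0066). With the length trend removed Ftl1 was at -0.081, and Fth1, at -0.13, passed (adjusted p = 0.032, edgeR). Both ferritin genes have near-identical copies, and their estimated counts were fractional in 6 of 6 libraries, so these values are uncertain. Their products store the iron that haem breakdown releases.

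In the NADPH supply list, 7 of 9 genes lay below 0 and 0 passed. Its median was -0.060, and -0.024 with the length trend removed. Pgd, which encodes an NADPH-making enzyme of the pentose phosphate pathway, had a log2 fold change of -0.11 (adjusted p = 0.25). In the list of other superoxide dismutases and oxidant sources 7 of 13 lay below 0. Nox4, which encodes an NADPH oxidase that makes hydrogen peroxide, was at a CPM of 18.1 ± 0.551 in the TNF-α and 22.2 ± 2.25 in the TNF-α+NFL libraries (both SD, n = 3), a log2 fold change of 0.30 (adjusted p = 0.13 in edgeR's quasi-likelihood fit). Aox1, an aldehyde oxidase gene, had one of -0.15 (adjusted p = 0.28). Sesn2 and Sesn3, which encode the stress-responsive sestrins, had log2 fold changes of -0.17 (adjusted p = 0.25) and -0.20 (adjusted p = 0.32). The remaining sestrin gene, Sesn1, was at 0.020 (adjusted p = 0.97), and 5 of the 8 genes of that list lay below 0. None of these 6 genes passed the threshold. With the length trend removed, Aox1 (-0.18, adjusted p = 0.046) and Sesn3 (-0.24, adjusted p = 0.0040) did in edgeR's fit, whereas leaving out TNF-α replicate 1 moved Sesn3 to -0.11 (adjusted p = 0.20). The estimated counts of Sesn3 were fractional in 6 of 6 libraries.

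**Figure D5:**
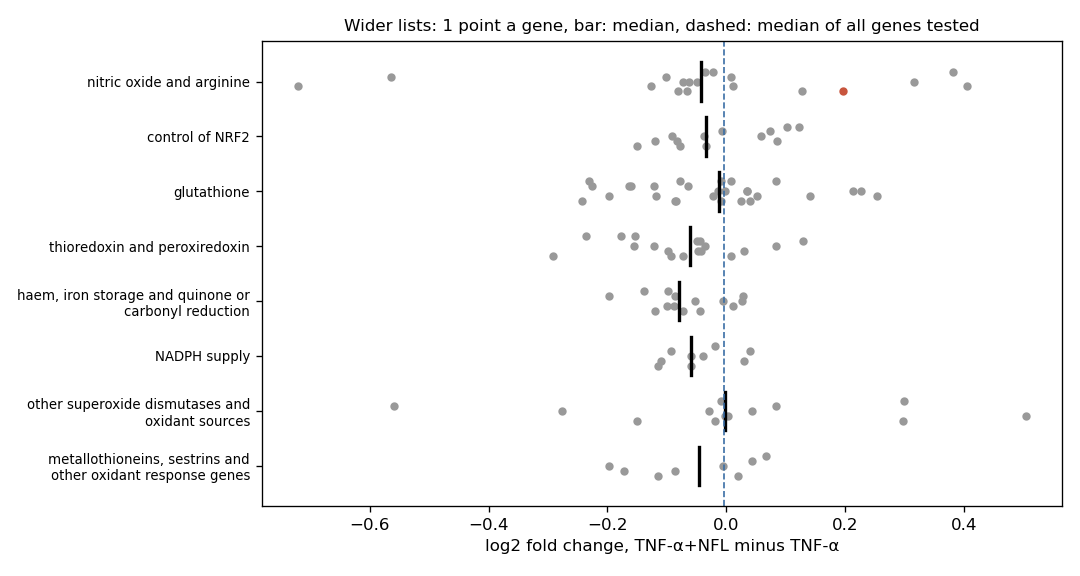
Log2 fold change (horizontal axis, TNF-α+NFL minus TNF-α) of each tested gene of the 8 lists, 1 point a gene, red where the adjusted p was under 0.05. Black bars mark the list medians, from -0.080 to -0.0017, beside the dashed median of all tested genes at -0.0035, and Ddah1 is the red point at 0.20.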

How the data were processed

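RNA-seq was run on poly(A) RNA of 6 chondrocyte libraries as single-end reads on a BGI platform. The authors deposited 1 table with estimated counts (not normalized), FPKM (scaled to transcript length and mapped reads) and TPM (scaled to transcript length and a common sum) per gene and library. The submitters' processing notes name HISAT2 2.0.4, Bowtie2 2.2.5, RSEM 1.2.12 and the rat build Rnor_6.0. The annotation and the test for changed genes are not given in the sources used here.

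Those counts, rounded to whole numbers, went into a quasi-likelihood fit of edgeR 4.0.16 (R 4.3.3) after filterByExpr and TMM scaling, with the robust option, and two-sided p-values were adjusted by Benjamini and Hochberg's method over 13250 genes. The biological coefficient of variation was 6.39%. A standard error is the log2 fold change divided by the root of F. RSEM divides reads between similar transcripts, so genes with near-identical copies are uncertain. Intervals are 95%, from the same fit. The test was checked on simulated counts.

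Named genes are the 10 members, list genes past an adjusted p of 0.05 and, in a list with none, the 2 with the smallest p. For the 2 members with the smallest p, the 3 genes of highest Pearson r were named. A gene that this rule gave in each of 2 places is not reported here. Other genes named in passing (Keap1, Bach1, Gch1, Ass1, Nos1, Nos3, Sesn1) were chosen after their values were seen, for their roles. The members and lists were chosen with earlier results of these data known. Promoters were matched by Entrez identifier to RefSeq (GRCr8). Genes of the lists were found by symbol or RefSeq identifier, and 17068 of 18420 identifiers matched RefSeq.

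Alternatives were no filter on low counts, at least 10 counts in every library, DESeq2 1.42.0 size factors and its Wald test, upper quartile scaling, limma-voom and limma 3.58.1 on log2(FPKM + 1) for genes with FPKM of 1 or more in 3 libraries, the replicate number as a block and leaving out each library. A fit without each library's length trend was added after the data had been seen.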

Additional observations from a re-analysis of the deposited data

How the results depend on the processing

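Over 14 alternatives, Sod1, Sod2, Hmox1, Nqo1, Nfe2l2, Cat, Gclc and Txnrd1 had the direction given above in each. The log2 fold change of Nos2 ran up to 0.48 (without TNF-α replicate 1) and turned to -0.035 without TNF-α replicate 3 and to -0.025 without TNF-α+NFL replicate 3, that of Gclm ran from -0.026 without TNF-α+NFL replicate 1 to 0.11 without TNF-α+NFL replicate 2, and that of Gsk3b was -0.010 with limma on log2(FPKM + 1). The number of members called lower, 1 in the analysis above, ran from 0 to 5 across the fits that left out 1 library. It was 0 with limma on log2(FPKM + 1) and with the replicate block, where Nqo1 had an adjusted p of 0.052. Deviations of same-numbered libraries from their group means correlated at -0.011, -0.024 and 0.080. Such values cannot exclude a shared culture or batch, and how the replicates were numbered is not given in the sources used here. The number of members lower stayed at 1 with the other filters and scalings, limma-voom and DESeq2's Wald test (adjusted p of Nqo1 0.00053). The number called higher was 0 in each fit. Of the wider lists, 1 gene was higher and 0 lower. Across the fits that left out 1 library these ran from 0 to 6 and from 0 to 19, with the highest values without TNF-α replicate 1. The number higher was 0 with limma on log2(FPKM + 1) and with the replicate block, and the number lower was 1 with no filter on low counts, 1 in limma-voom and 4 in DESeq2's Wald test. With the length trend removed, an alternative chosen after seeing the data, 2 were higher and 4 lower, and the members kept their directions. Over all genes, 81 were called in the analysis above, 132 with no filter, 148 with the DESeq2 Wald test, 14 on FPKM, 34 with the replicate block, 235 with the length trend removed, and from 5 to 930 with 1 library left out. The cause of these differences was not tested.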
